A study of Mus musculus with 4 samples.

Results

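The BCL2 family genes described here are 10 mouse genes whose proteins decide at the mitochondrion whether a cell lives or dies, measured in erythroblasts from mice lacking Parp2 and from wild type mice. The 10 are the pro-survival genes Bcl2, Bcl2l1, Mcl1 and Bcl2l2, the 5 BH3-only genes Bcl2l11, Bad, Bid, Bik and Bmf, and the effector gene Bak1. Each had to be represented by a probe set that names it alone, and each of the 10 had exactly 1 such probe set, so that they make up 10 of the 19938 genes with a probe set of their own among 23410 annotated probe sets. The members were taken by family membership and not by their values. The cells were bone marrow cells sorted for the red cell lineage protein Ter119 and the transferrin receptor CD71. There were 2 arrays from Parp-2-/- mice and 2 from wild type mice, both on a C57BL/6 strain background, with 100 ng of total RNA labelled per array; age, sex, the design of the deleted allele and any pooling of animals are not given in the sources used here. The values are deposited log2 expression values, so a difference of 1 is a doubling.

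The family works as a set of opposing proteins. Pro-survival members hold the effectors BAK and BAX in check at the outer mitochondrial membrane, BH3-only proteins relay death signals by binding pro-survival members or by activating effectors, and freed effectors open pores that release cytochrome c and start the caspase cascade. In erythroblasts, erythropoietin signalling through STAT5 keeps cells alive in part through BCL-XL, the product of Bcl2l1, and mouse erythroid cells need BCL-XL late and MCL-1 early in their maturation.

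Erythroblast markers read high on every array, and so did some neutrophil markers. S100a8 read 12.87 and 12.67 on the knockout arrays and 13.09 and 13.25 on the wild type arrays. Of 15 defining erythroblast markers 13 had a probe set of their own. The lowest reading of any of these 13 was 8.96 (Icam4), where the median over the means of all annotated probe sets was 5.36. The summed linear levels of the 13 were 20976 and 30837 on the knockout arrays and 16392 and 35315 on the wild type arrays. Parp2 read 7.11 and 6.70 on the knockout arrays against 8.24 and 7.65 on the wild type arrays, without overlap and in the direction of the labels, although its difference of -1.04 ± 0.40 (SE, n = 2 per group) did not pass the test over all probe sets (limma adjusted p = 0.9999). Which part of its transcript the mutation removes was not analysed here. Markers of other blood cells were mostly lower in the knockout sort, except those of megakaryocytes and platelets. All 18 neutrophil markers were lower, with summed linear levels of 22222 to 29078 on the knockout arrays and 41077 to 50617 on the wild type arrays. So were 10 of 12 B cell markers (summed levels of 891 to 989 in the knockout and 1817 to 2316 in wild type), 13 of 15 monocyte and macrophage markers (3440 to 3756 in the knockout and 6092 to 6375 in wild type), 9 of 11 mast cell, basophil and eosinophil markers (630 to 631 in the knockout and 1032 to 2179 in wild type) and 7 of 10 T and NK cell markers (406 to 480 in the knockout and 643 to 1042 in wild type). Of the megakaryocyte and platelet markers 6 of 7 were higher (468 to 834 in the knockout and 534 to 707 in wild type). Lyz2 weighed most in the monocyte and macrophage sums, at 11.23 and 10.67 in the knockout and 12.05 and 11.79 in wild type. Of those 15 markers 4 had no overlap (26.7%, against 25% of all probe sets). In both genotypes 11 were higher on the array numbered 2. Nkg7 weighed most in the T and NK sums, at 7.28 and 7.02 in the knockout and 9.55 and 8.01 in wild type. Of those 10 markers 3 were lower without overlap (9.42% of all probe sets were) and 1 was higher without overlap (15.6% were). The lowest reading within each of these lists was 5.93 (Fcnb) for neutrophils, 3.92 (Ebf1) for B cells, 3.41 (Spic) for monocytes and macrophages, 3.43 (Il5ra) for mast cells, basophils and eosinophils, 3.55 (Klrd1) for T and NK cells and 3.83 (Ppbp) for megakaryocytes and platelets. Their part in the values of the BCL2 family was not tested, and in such bulk samples fewer cells of a type and less RNA per cell cannot be told apart.

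No BCL2 family member differed between the genotypes beyond the spread of its arrays. By limma (a linear model that moderates each probe set's spread towards that of all others), 0 of 10 passed an adjusted p under 0.05, where 0% of the 23410 probe sets did, and 0 of 10 had an unadjusted p under 0.05, where 2.08% did. The knockout and wild type readings overlapped for every 1 of the 10, whereas 25% of all probe sets had groups without overlap. That count of 0 became 4 when knockout replicate 1 was left out (where 78.2% of all probe sets had no overlap), 6 when it was knockout replicate 2 (61.1%), 5 when it was wild type replicate 1 (51.7%) and 5 when it was wild type replicate 2 (59%), since a lone array overlaps less often by construction. The median difference over the 10 was +0.06 on the log2 scale, and it was +0.06 over all probe sets as well. For all 10 members the gap between the arrays of at least 1 genotype was larger than the difference between the genotype means, as it was for 86.0% of all probe sets. With 2 arrays per genotype these comparisons leave wide intervals, and a p that misses the threshold does not show that the levels were alike.

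**Figure D1:**
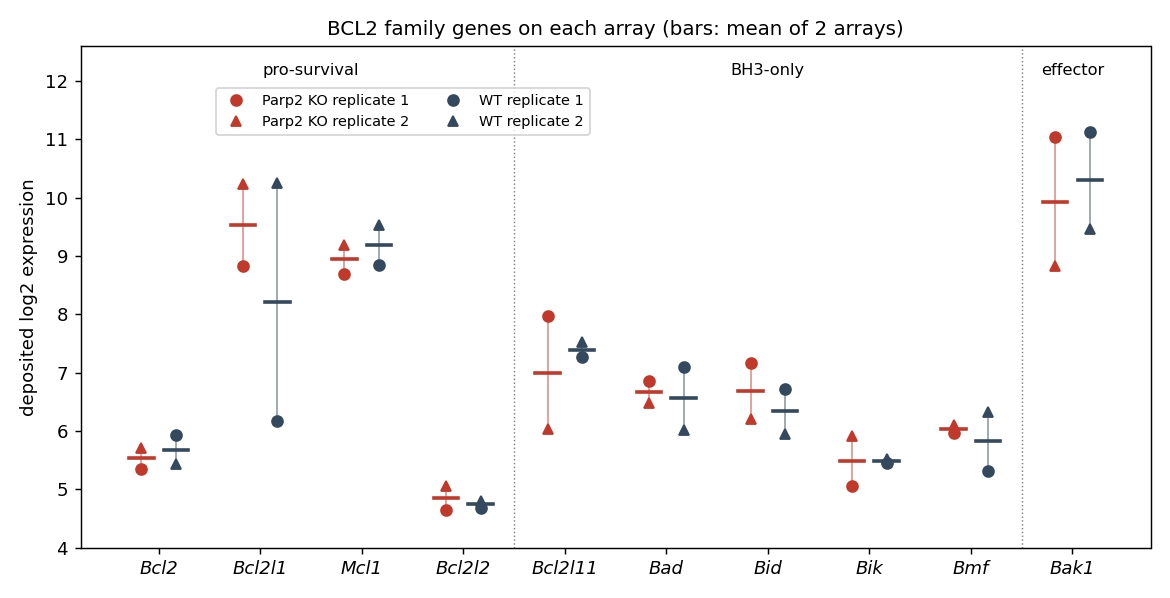
Deposited log2 expression of the 10 genes on each array, with Parp2 knockout (red) left of wild type (dark blue), circles for replicate 1, triangles for replicate 2 and bars for the mean of 2 arrays. The 2 colours overlap for every gene, and the widest gaps are between the 2 wild type arrays for Bcl2l1 (6.17 and 10.25) and between the 2 knockout arrays for Bak1 (11.03 and 8.82).

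Among the pro-survival genes, Bcl2l1 stood out by its spread. Its readings were 8.82 and 10.23 on knockout arrays 1 and 2, against 6.17 and 10.25 on wild type arrays 1 and 2. A single wild type array was thus far below the other 3, and the other wild type array was the highest of all. The difference of +1.31 ± 1.22 (SE, n = 2 per group) corresponds to 2.48-fold, with a 95% interval of -1.60 to 4.23 (limma, adjusted p = 0.9999). It was higher than 99.8% of the differences of all probe sets, but its spread within genotypes was larger than that of 99.9% of them. The outcome of the test turned on 1 array: without wild type replicate 2, the difference was +3.35 with an adjusted p = 0.00624 (0.265% of all probe sets passed in that comparison), and without wild type replicate 1 it was -0.73 with an adjusted p = 0.99996. With either wild type array left out, limma gave all probe sets 1 shared spread, so that every member had the same SE of 0.737, and the gap of 1.41 between the Bcl2l1 readings of the knockout pair did not enter it. The lone wild type array was assumed to vary likewise. Between the arrays numbered 2 the knockout lay below wild type, by a log2 difference of -0.023,, and between those numbered 1 it lay 2.65 above it.

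The 250 bases before each annotated start of Bcl2l1 are shown because this gene carries the widest variation of the family, and those before Bak1 because it carries the next widest and runs the other way. They come from RefSeq on the build GRCm38.p6, whose promoter table held 15 such windows for 9 of the 10 members. Capitals mark the GATA factor motif AGATAA and the KLF-type motif CCNCNCCC, searched on both strands; the STAT motif TTCNNNGAA was searched too. The Bcl2l1 windows lie on the minus strand at chr2:152831729-152831978, chr2:152830718-152830967 and chr2:152828490-152828739 and the Bak1 window on the minus strand at chr17:27028628-27028877, and all are printed 5′ to 3′ along the gene.
Bcl2l1, first start: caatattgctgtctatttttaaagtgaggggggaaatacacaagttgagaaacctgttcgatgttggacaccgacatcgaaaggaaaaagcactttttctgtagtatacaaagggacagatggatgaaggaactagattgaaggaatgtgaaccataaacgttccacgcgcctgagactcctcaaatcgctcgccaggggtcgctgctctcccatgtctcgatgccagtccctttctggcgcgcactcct
Bcl2l1, next start downstream: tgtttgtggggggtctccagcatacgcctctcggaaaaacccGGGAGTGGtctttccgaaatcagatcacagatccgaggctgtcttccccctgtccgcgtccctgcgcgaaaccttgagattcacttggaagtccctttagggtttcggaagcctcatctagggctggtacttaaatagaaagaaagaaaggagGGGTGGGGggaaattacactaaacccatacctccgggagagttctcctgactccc
Bcl2l1, last start: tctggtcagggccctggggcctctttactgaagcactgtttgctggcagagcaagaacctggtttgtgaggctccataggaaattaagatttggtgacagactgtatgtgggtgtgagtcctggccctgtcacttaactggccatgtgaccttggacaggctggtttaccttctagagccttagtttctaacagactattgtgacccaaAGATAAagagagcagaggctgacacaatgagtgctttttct
Bak1: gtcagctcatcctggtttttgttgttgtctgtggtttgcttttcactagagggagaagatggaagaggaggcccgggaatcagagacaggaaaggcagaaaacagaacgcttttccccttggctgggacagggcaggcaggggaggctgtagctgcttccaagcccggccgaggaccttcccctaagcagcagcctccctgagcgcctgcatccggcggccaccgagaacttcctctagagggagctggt

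The AGATAA motif was found in 1 of the 15 member windows, that of the last Bcl2l1 start, where it begins 41 bases before the start; 9.99% of all 32851 promoter windows hold it. CCNCNCCC was found in 9 of the 15, among them the middle Bcl2l1 window with 2 matches, where 45.9% of all windows hold it. TTCNNNGAA was in 0 of the 15 and in 7.02% of all windows. The Bak1 window held none of these letters. A match describes the sequence only, and the Bcl2l1 probe set does not tell which start was used.

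Mcl1, whose short-lived protein protects early progenitors, read 8.69 and 9.19 on the knockout arrays, against 8.84 and 9.53 on the wild type arrays. The groups overlapped and the second array was the higher one in both. Its difference was -0.24 ± 0.42 (SE, n = 2 per group), with a 95% interval of -1.24 to 0.75. Bcl2, the founding member of the family, read 5.36 and 5.71 in the knockout and 5.93 and 5.43 in wild type. A wild type array was the highest of the 4 and the other wild type array lay between the knockout readings. The difference was -0.15 ± 0.39 (SE, n = 2 per group; 95% interval -1.07 to 0.77). Bcl2l2, which encodes the pro-survival protein BCL-W, read 4.65 and 5.06 in the knockout and 4.67 and 4.81 in wild type, with both wild type readings inside the knockout range. It differed by +0.12 ± 0.37 (SE, n = 2 per group), and by -0.015 after quantile normalisation of the deposited values. It was the 1 member whose mean lay below the median of all probe set means, where normalised array values compress differences.

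The effector gene Bak1 encodes BAK, which oligomerises in the outer mitochondrial membrane. It read 11.03 and 8.82 on knockout arrays 1 and 2, against 11.13 and 9.46 on wild type arrays 1 and 2. The knockout and the wild type each had 1 high and 1 low array, and the high one was array 1 in both. The difference of -0.37 ± 0.83 (SE, n = 2 per group; 95% interval -2.34 to 1.61) was small beside the gaps of 2.21 between the knockout arrays and 1.66 between the wild type arrays, which are 4.63-fold and 3.17-fold. Its spread within genotypes was larger than that of 98.0% of all probe sets. Bax, the other main effector gene, was not analysed here.

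The BH3-only genes did not share a direction: 4 were higher in the knockout, Bik by no more than 0.0013, and 1 was lower, with differences from -0.40 to 0.35. Bcl2l11 encodes BIM, which binds all the main pro-survival proteins. It read 7.97 and 6.03 on the knockout arrays and 7.27 and 7.52 on the wild type arrays, so the knockout held both the highest and the lowest value. The difference was -0.40 ± 0.64 (SE, n = 2 per group; 95% interval -1.91 to 1.12). Bid, whose protein is cut by caspase-8 to link death receptors to the mitochondrion, read 7.17 and 6.21 in the knockout and 6.72 and 5.95 in wild type. Array 1 was the higher one in each genotype, and on each number the knockout was above wild type, by 0.44 and 0.26. With a difference of +0.35 ± 0.48 (SE, n = 2 per group; 95% interval -0.80 to 1.5) the groups still overlapped.

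Bad encodes a BH3-only protein that survival kinases hold inactive by phosphorylation. It read 6.86 and 6.49 in the knockout and 7.09 and 6.02 in wild type, where the wild type pair enclosed the knockout pair, and it differed by +0.12 ± 0.47 (SE, n = 2 per group). Bmf, a BH3-only gene whose protein can be tethered to the cytoskeleton through dynein light chain, read 5.97 and 6.11 in the knockout, again between the wild type readings of 5.32 and 6.32. Its difference was +0.22 ± 0.44 (SE, n = 2 per group). Bik, which encodes a BH3-only protein of the endoplasmic reticulum, read 5.05 and 5.92 in the knockout and 5.46 and 5.52 in wild type. The knockout pair enclosed the wild type pair. The means differed by 0.0013 ± 0.42 (SE, n = 2 per group), and by -0.072 when arrays were centred on their medians.

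**Figure D2:**
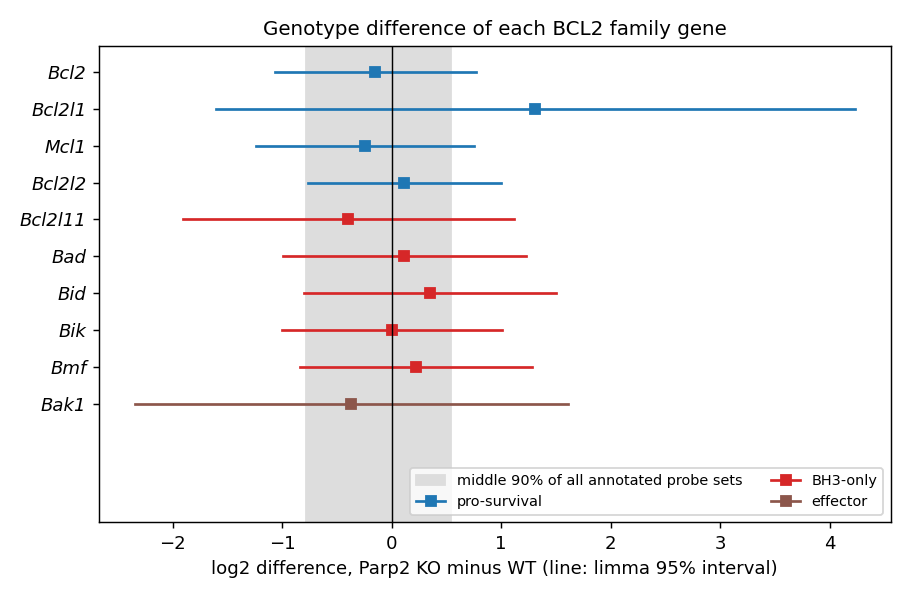
Log2 difference, Parp2 knockout minus wild type, of each gene (squares) with limma's 95% interval (lines), coloured by role; the grey band holds the middle 90% of the differences of all annotated probe sets, from -0.79 to 0.54. Every interval includes 0, and Bcl2l1 at +1.31 is the 1 gene outside the band.

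Pro-survival and pro-death members were then weighed against each other. Because levels of different probe sets cannot be compared, each reading was first taken as a deviation from its gene's mean over the 4 arrays, and the deviations were averaged within a class. The 4 pro-survival genes averaged -0.20 and 0.46 on the knockout arrays, against -0.68 and 0.42 on the wild type arrays. The 6 pro-death genes averaged 0.37 and -0.38 on the knockout arrays, against 0.19 and -0.18 on the wild type arrays. In both classes array 1 and array 2 stood on opposite sides of 0 in each genotype, which the centring itself favours where genotype means are alike. The class averages ran in opposite directions, but not every member did. The pro-death genes Bik and Bmf were higher on array 2 in each genotype, and the pro-survival gene Bcl2 was lower on it in wild type.

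Pro-survival minus pro-death thus came to -0.57 and 0.84 on knockout arrays 1 and 2, against -0.87 and 0.60 on wild type arrays 1 and 2. The gap between arrays was 1.41 in the knockout and 1.47 in wild type, with array 2 on the pro-survival side in both. Much of it came from Bcl2l1 and Bak1. Without these genes the gap was 0.88 in the knockout and 0.22 in wild type. Without Bcl2l1 the pro-survival genes averaged -0.26 and 0.16 on the knockout arrays, against -0.0083 and 0.10 on the wild type arrays. The genotype means were 0.14 ± 1.00 in the knockout and -0.14 ± 1.04 in wild type (SD, n = 2 each), a difference of +0.27, which is smaller than either SD. The smallest two-sided p an exact permutation of these 4 arrays allows is 0.333, and that test was left out. Without Bcl2l1 the difference was -0.08, and without Bak1 it was +0.20. With 1 array left out the value became 0.98 (no knockout replicate 1), -0.44 (no knockout replicate 2), -0.46 (no wild type replicate 1) and 1.01 (no wild type replicate 2), so its sign turned with the array left out.

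**Figure D3:**
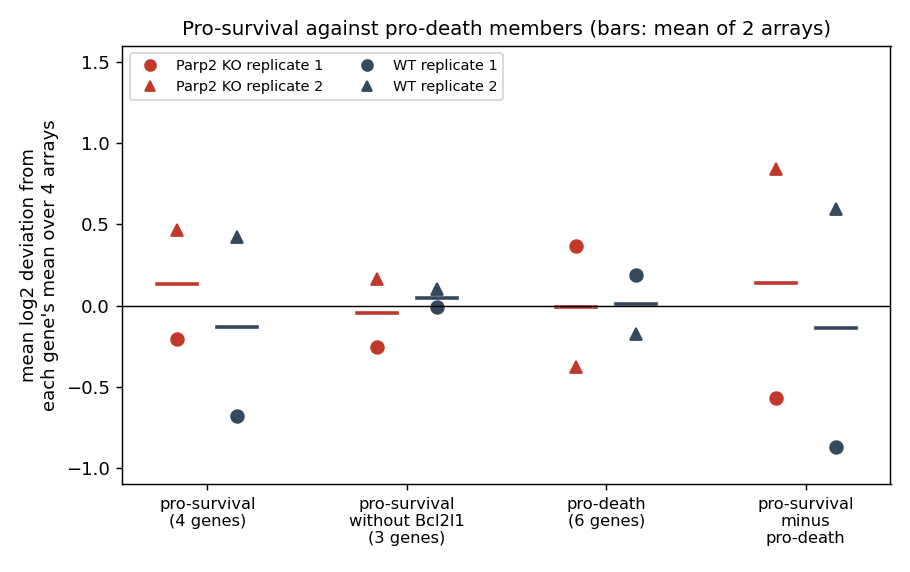
Mean log2 deviation of pro-survival genes, of pro-survival genes without Bcl2l1, of pro-death genes and of the first minus the third, on each array (circles replicate 1, triangles replicate 2, bars the mean of 2 arrays), with Parp2 knockout in red left of wild type in dark blue. In the last column the arrays numbered 2 sit at 0.84 and 0.60 and those numbered 1 at -0.57 and -0.87.

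The direction of the spread within a genotype often followed the replicate number in the titles, among the members and over all probe sets. For 8 of 10 members the number 2 array differed from the number 1 array in the same direction in knockout and wild type, where 61.1% of all probe sets did so. Bcl2l1, Mcl1, Bcl2l2, Bik and Bmf were higher on the number 2 arrays of both genotypes, and Bad, Bid and Bak1 were lower. Some of these gaps were small, such as 0.058 for Bik in wild type and 0.13 for Bmf in the knockout. Bcl2 and Bcl2l11 went opposite ways in the 2 genotypes. No source used here says what the number stands for. Knockout replicate 2 also had a narrower interquartile range over all probe sets (1.98) than the other 3 arrays (2.62 to 2.94).

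Maturation genes moved with the same arrays. Of 13 measured late erythroblast genes, 12 were higher on the number 2 array in both genotypes (33.7% of all probe sets were). The mean log2 level of the 13 was 9.80 and 10.72 on knockout arrays 1 and 2, against 8.82 and 10.78 on wild type arrays 1 and 2. That is the order in which Bcl2l1 ran: lowest on wild type array 1, next on knockout array 1, and high on both arrays numbered 2. Xpo7, a nuclear exportin needed for nuclear condensation in erythroblasts, read 10.45 and 11.72 in the knockout and 6.93 and 12.05 in wild type. Trim58, a ubiquitin ligase of late erythroblasts that acts in enucleation, read 7.24 and 8.66 in the knockout and 5.04 and 9.29 in wild type. Like Bcl2l1, both had wild type array 1 far below the other 3. Alas2, the erythroid enzyme that starts heme synthesis, read 11.13 and 12.24 in the knockout and 10.18 and 12.09 in wild type, in nearly that order. Rundc3a differed from this pattern, with 5.78 and 7.54 in the knockout and 5.80 and 5.87 in wild type.

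Genes of early erythroid cells were less uniform: of 10 measured, 6 were lower and 3 higher on the number 2 array in both genotypes. Of all probe sets 27.4% were lower and 33.7% higher in that way. The 3 higher ones were Gata2, Cd34 and Hmga2. Myc, which drives growth of early cells, read 9.51 and 7.15 in the knockout and 10.15 and 7.72 in wild type, and so was high on the arrays where Bak1 was high. How many probe sets share that order was not counted. Kit, the stem cell factor receptor gene, read 5.73 and 5.82 in the knockout, against 8.09 and 5.98 in wild type. The cell cycle gene Ccnd2 read 6.46 and 6.18 in the knockout, against 7.69 and 7.08 in wild type. Cdk6, a kinase partner of D-type cyclins, read 8.04 and 5.30 in the knockout and 8.39 and 7.85 in wild type, with knockout array 2 far below the rest. By genotype 9 of these 10 genes were lower in the knockout, 4 of them without overlap (9.42% of all probe sets were lower without overlap). Of the 13 late genes 12 were higher, 0 of them without overlap (15.6% of all probe sets were higher without overlap). Over all probe sets 56.4% of the differences were above 0. The part of cell maturity in the BCL2 family values was not tested.

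**Figure D4:**
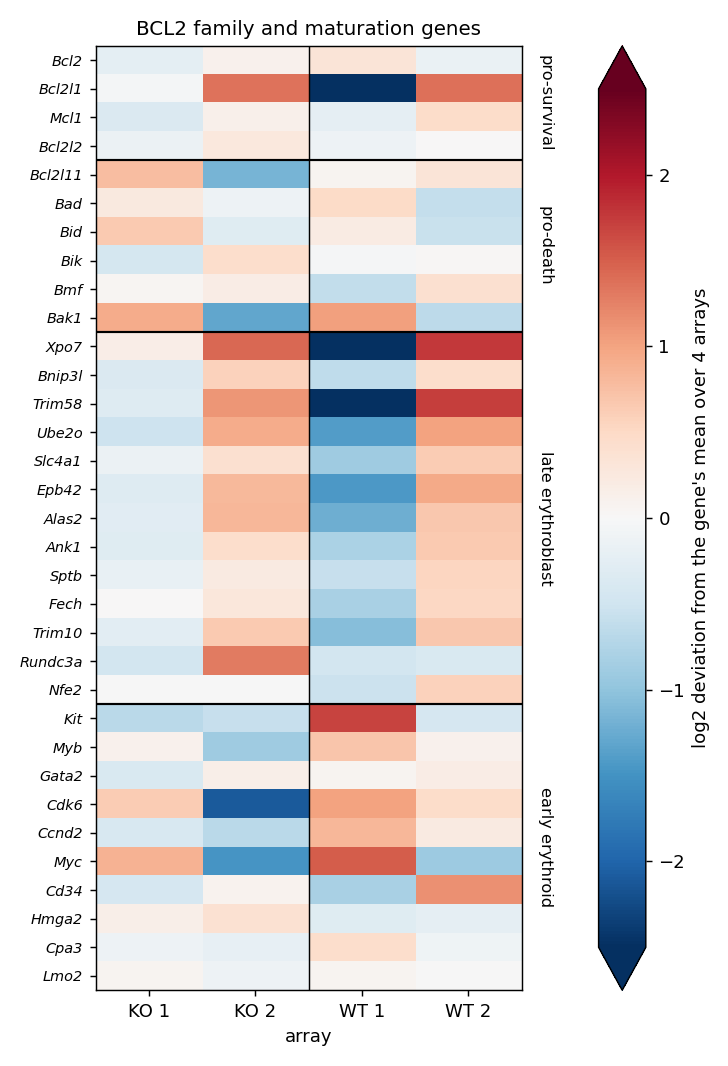
Log2 deviation of each gene from its own mean over the 4 arrays (red above, blue below, colours saturating at 2.5), with the 2 Parp2 knockout arrays left of the 2 wild type arrays, for the 10 BCL2 family genes and the late and early erythroid lists. Bcl2l1 is palest on knockout array 1 and deepest blue on wild type array 1 like Xpo7, and Bak1 has the column order of Myc. Gata2, Cd34 and Hmga2 of the early list do not have that order.

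Other BCL2 family genes were compared as a list of 16, of which 12 had a probe set of their own. None passed the test over all probe sets and 0 had an unadjusted p under 0.05 (2.08% of all probe sets did), with 8 higher and 4 lower and a median difference of +0.19. Groups did not overlap for 4 of the 12, a share not far from the 25% of all probe sets. Bbc3, the p53-induced BH3-only gene that encodes PUMA, read 6.35 and 7.40 in the knockout and 5.73 and 5.99 in wild type. Both knockout arrays lay above both wild type arrays, with a difference of +1.01 ± 0.46 (SE, n = 2 per group; limma adjusted p = 0.9999). Bnip3, a BH3-like gene of mitophagy, was lower by its brighter probe set at -0.68 ± 0.40 and was at -0.0025 by its second one. Bcl2l10, a dim family member, differed by +0.51 ± 0.36, with readings from 3.44 to 4.19 on the 4 arrays.

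Regulators upstream of the family included the erythropoietin pathway and the enzymes that control member proteins. Of 20 measured, 6 were higher and 14 lower in the knockout, with a median of -0.14. Groups did not overlap for 2 of them, both lower, against 25% of all probe sets in either direction. By limma 0 passed the test and 1 had an unadjusted p under 0.05 (2.08% of all probe sets did). That one was Fbxw7, the substrate receptor of a ubiquitin ligase that targets MCL-1 for destruction. It read 6.93 and 5.80 in the knockout, against 8.03 and 7.35 in wild type, a difference of -1.33 ± 0.50 (SE, n = 2 per group; limma adjusted p = 0.9999), while its second probe set differed by -0.40. Stat5b, a transcription factor of erythropoietin signalling, differed by -1.0 ± 0.56, and Mapk8, which encodes the kinase JNK1 that can phosphorylate BIM and BMF, by -0.94 ± 0.58; their groups overlapped. The erythropoietin receptor gene Epor read 9.42 and 9.59 in the knockout and 9.44 and 10.02 in wild type, with overlap. Pim1, a STAT5-induced survival kinase gene, read 8.45 and 9.90 in the knockout and 7.12 and 9.55 in wild type, again with wild type array 1 the lowest.

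Genes that act at or after the opening of the mitochondrion showed no call either. Of 12 measured, 4 were higher and 8 lower, with a median of -0.14. By limma 0 passed the test or had an unadjusted p under 0.05 (2.08% of all probe sets did). Apaf1, the scaffold of the apoptosome, read 7.77 and 8.27 in the knockout and 6.96 and 7.67 in wild type, without overlap, at +0.71 ± 0.42 (SE, n = 2 per group; limma adjusted p = 0.9999). It was the 1 gene of the 12 without overlap, fewer than the 25% of all probe sets without overlap would give. Aifm1, a mitochondrial flavoprotein, differed by -0.82 ± 0.66, and Vdac2, the outer membrane channel that binds BAK, by -0.63 ± 0.82, or by -0.48 on its second probe set. Vdac2 read 9.48 and 7.13 in the knockout and 9.64 and 8.24 in wild type, with array 1 the higher one in each genotype, as for Bak1. Of the 12 genes 8 were lower on the number 2 array in both genotypes, where 27.4% of all probe sets were.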

How the data were processed

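The submitters' processing notes name RMA, limma and R 3.0.2 without their roles. The deposited log2 values form 1 table of 35511 probe sets by 4 arrays, taken here without further normalisation. Over the annotated probe sets the arrays differed in median (5.23 to 5.49) and in interquartile range (1.98 to 2.94). The main fit did not adjust for that. Symbols came from the platform annotation (1 gene for 21789 probe sets, several for 1621, none for 12101); the gene IDs of all 10 members stood in a RefSeq table of GRCm38.p6. Where several probe sets named a gene alone, the one of highest mean was taken.

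Parp2 knockout minus wild type was fitted with limma 3.58.1 in R 4.3.3 over 23410 annotated probe sets, with 2 residual and 4.77 prior degrees of freedom; calls needed a Benjamini-Hochberg adjusted p under 0.05. Intervals are limma's 95% intervals. The number of arrays limits the precision. The labels do not say whether replicate arrays stem from different mice, so that p-values reflect the spread of these samples alone, which may be technical. The number that opens each title (3 or 4 in the knockout, 1 or 2 in wild type) is unexplained; an order of processing, if it is one, and the genotype cannot be told apart. The fit was run on simulated arrays with independent noise. They held no shared effect of the replicate number, so that run cannot check the intervals where such an effect exists. All 10 members and Parp2 are named. So are the 3 genes of lowest p in each list of other family, upstream, downstream, late and early genes. Trim58, Myc, Epor, Pim1, Gata2, Cd34 and Hmga2 were added after their values were seen. Of each marker list the gene of lowest reading is named, and S100a8, Lyz2 and Nkg7 were added after their values were seen. The members and lists were chosen with earlier results of these data known. Some listed genes are not analysed here.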

Additional observations from a re-analysis of the deposited data

How the results depend on the processing

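Over 12 alternatives, the 10 member differences gave 119 further values (Bcl2l2 was left out among the brighter probe sets, whose limit is the median of all means). Of these, 100 kept their direction and their side of the threshold, 18 changed sign and 1 passed the test. Of the sign changes, 16 came with 1 array left out. The other 2 were Bik, at -0.072 with arrays centred on their medians, and Bcl2l2, at -0.015 after quantile normalisation of the deposited values.

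With 1 array left out, the differences ranged from -0.73 to 3.35 for Bcl2l1, -0.40 to 0.10 for Bcl2, -0.59 to 0.10 for Mcl1, -0.091 to 0.32 for Bcl2l2, -1.37 to 0.57 for Bcl2l11, -0.42 to 0.65 for Bad, -0.13 to 0.83 for Bid, -0.43 to 0.44 for Bik, -0.28 to 0.72 for Bmf and -1.47 to 0.74 for Bak1. The count of members past the test (0) was 0 to 1, the 1 being Bcl2l1 without wild type replicate 2. The count of members without overlap (0) was 4 to 6 in those settings. It stayed 0 after centring and after quantile normalisation. The alternatives for that count of overlaps, and the classes without Bcl2l1, Bak1 or both, were chosen after seeing the data. The pro-survival minus pro-death difference (0.27) was -0.46 to 1.01 with 1 array left out and -0.08 to 0.32 otherwise.

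Over the whole table the number of calls (0) ran from 0 to 62 with 1 array left out, and came to 8 under trended, robust moderation and to 486 where the unadjusted p had to be under 0.05. Nothing in the labels pairs arrays by replicate number; across probe sets, the difference of array 2 from array 1 in the knockout had a correlation of 0.468 with that in wild type. In a fit with a replicate block, 274 probe sets and 0 members passed, Bcl2l1 having an adjusted p = 0.0862. That fit gave every probe set the same SE of 0.406, so its calls follow the size of a difference and not a gene's own spread, which for Bcl2l1 includes differences of -0.023 and 2.65 on the 2 numbers. Signal limits Bcl2l2, the member whose mean lay below the median of probe set means (5.357). The lowest readings of Bik (5.05), Bmf (5.32) and Bcl2 (5.355) lay below that median as well.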
